A study of Mus musculus with 96 samples.

Results

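Small nucleolar RNAs (snoRNAs), small Cajal body RNAs (scaRNAs) and the noncoding genes that carry them were described in cultured mouse osteoblasts. The members were all genes whose symbol begins with Snord, Snora, Scarna or Snhg, together with Gas5. With transcripts summed per gene, 159 of the 37945 genes in the deposited table were members: 97 box C/D snoRNAs (Snord), 41 box H/ACA snoRNAs (Snora), 9 scaRNAs and 12 host genes. A further 7 annotated gene identifiers, among them Snhg1, Snhg8, Snhg10 and Snhg14, were not analysed here. The study profiled 42 strains of the Collaborative Cross, a panel of recombinant inbred mouse strains, in 96 samples. Heads of mice aged 3 to 5 days were shipped overnight on ice, and cells released from their calvaria (skull caps) were grown to confluence and then differentiated for 10 days (ascorbic acid, glycerol phosphate) before total RNA was taken. No strain served as a control, and all received the same treatment. Of the 95 libraries, 3 strains had 1, 31 had 2, 2 had 3 and 6 had 4. The runs of the sample sequenced 2 times were averaged. Separate animals or cultures per sample are not stated in the labels. The p-values therefore reflect only how far these samples spread, and that spread may be technical.

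Most snoRNAs of mammals are cut from introns of host genes after splicing. Box C/D snoRNAs direct ribose methylation and box H/ACA snoRNAs direct pseudouridylation of ribosomal RNA, each within a particle of its own core proteins, while scaRNAs guide the same changes on spliceosomal RNAs in Cajal bodies. Hosts are often genes of ribosomal proteins or translation factors. The spliced RNAs of Gas5 (growth arrest specific 5) and many Snhg genes encode no known stable protein and are turned over by nonsense-mediated decay when they are translated.

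The pair of box H/ACA snoRNAs in Snhg3, Snora73a and Snora73b, had the highest levels of the members and are shown to let their difference be seen. They have the same length and 96.6% identity, and the capitals mark the 7 bases that differ. Sequences are those of GENCODE M21 transcripts on GRCm38, written 5′ to 3′ with T for U.
Snora73a: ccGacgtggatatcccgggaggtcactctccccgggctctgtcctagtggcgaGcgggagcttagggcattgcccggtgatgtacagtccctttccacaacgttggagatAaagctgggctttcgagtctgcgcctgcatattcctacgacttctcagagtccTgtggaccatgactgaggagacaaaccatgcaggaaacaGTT
Snora73b: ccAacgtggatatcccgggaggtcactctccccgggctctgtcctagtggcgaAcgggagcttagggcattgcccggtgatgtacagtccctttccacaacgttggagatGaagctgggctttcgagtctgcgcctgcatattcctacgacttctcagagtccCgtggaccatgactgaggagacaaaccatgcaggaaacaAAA

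The box C/D pair in Rps3 is shown because both copies were related to that host across strains. Capitals mark TGATGA (box C) within the first 25 bases and CTGA (box D) within the last 20. Their alignment held 107 identical bases at 162 positions (66.05%).
Snord15a: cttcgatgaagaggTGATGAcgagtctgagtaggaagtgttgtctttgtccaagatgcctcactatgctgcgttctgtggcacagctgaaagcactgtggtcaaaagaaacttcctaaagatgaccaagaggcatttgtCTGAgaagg
Snord15b: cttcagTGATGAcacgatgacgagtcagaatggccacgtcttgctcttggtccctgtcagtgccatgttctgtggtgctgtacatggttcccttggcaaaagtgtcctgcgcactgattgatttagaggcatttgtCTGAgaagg

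Snora57 and Snord22 are shown because the same strains were high in both. Capitals mark ACA within the last 6 bases of Snora57 and CTGA within the last 20 of Snord22, which has no TGATGA in its first 25 bases.
Snora57: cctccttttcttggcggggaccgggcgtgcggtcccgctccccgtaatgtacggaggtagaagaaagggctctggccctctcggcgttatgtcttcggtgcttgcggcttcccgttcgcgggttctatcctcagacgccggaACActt
Snord22: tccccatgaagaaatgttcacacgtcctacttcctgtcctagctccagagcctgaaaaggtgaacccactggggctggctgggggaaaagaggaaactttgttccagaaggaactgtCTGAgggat

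Snord49b stands for the short box C/D snoRNAs that few reads covered, with the same capitals as the Rps3 pair.
Snord49b: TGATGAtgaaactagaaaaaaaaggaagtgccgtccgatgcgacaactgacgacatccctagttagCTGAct

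On the transcribed strand, TGATGA in the first 25 bases was found in 69 of 96 box C/D members (71.9%) and in 0 of 40 box H/ACA members with a sequence used here. CTGA in the last 20 bases was found in 94 of 96 box C/D (97.9%) and 5 of 40 box H/ACA members (12.5%). ACA in the last 6 bases was found in 5 of 96 (5.21%) and 37 of 40 (92.5%), respectively. The names therefore matched these letters in most members, and a missing match says only that the letters are not in that window.

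The length of a snoRNA went with the number of reads behind its value. Per the labels' protocols, the libraries held RNAs longer than 200 nt. Levels are in TPM, a unit per transcript length scaled to the same total in every library, and scaled TPM is that value divided by a factor per library that brings the bulk of genes to 1 level. Deposited values of snoRNA, scaRNA and small nuclear RNA transcripts were in most cases whole multiples of a fixed step, which gave an estimate of reads. In the median sequencing run 78.0% of values of 0.5 to 30 reads lay within 0.05 of a whole number (59.4% to 86.1% over runs). For a step fixed in advance 10% would by chance. The step of each run was chosen for a high share, so the share is no test of it. Members differed: 100% of 80 values were whole for Snord49b, but 6.15% of 65 for Snora52, 6.41% of 78 for Snord32a and 9.20% of 87 for Snord21. Estimated library depth was 21.8 to 87.3 M reads (median 28.9 M). The 7 snoRNAs and scaRNAs over 200 nt, all detected in every library, had median levels up to 3189 scaled TPM. Of the 34 members up to 74 nt, none was above 0 in every library and 10 were at 0 in all. Here and below, a value under 1e-06 scaled TPM is counted as 0. For these 1 read was worth 30.8 TPM in the median library, so their TPM cannot be set beside that of longer RNAs. A count of 0 reads still allows 3, or 92.5 TPM, for such a member, against 4.63 TPM for one of 94 nt and 0.734 TPM for one of 200 nt, limits that cover counting error only.

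**Figure D1:**
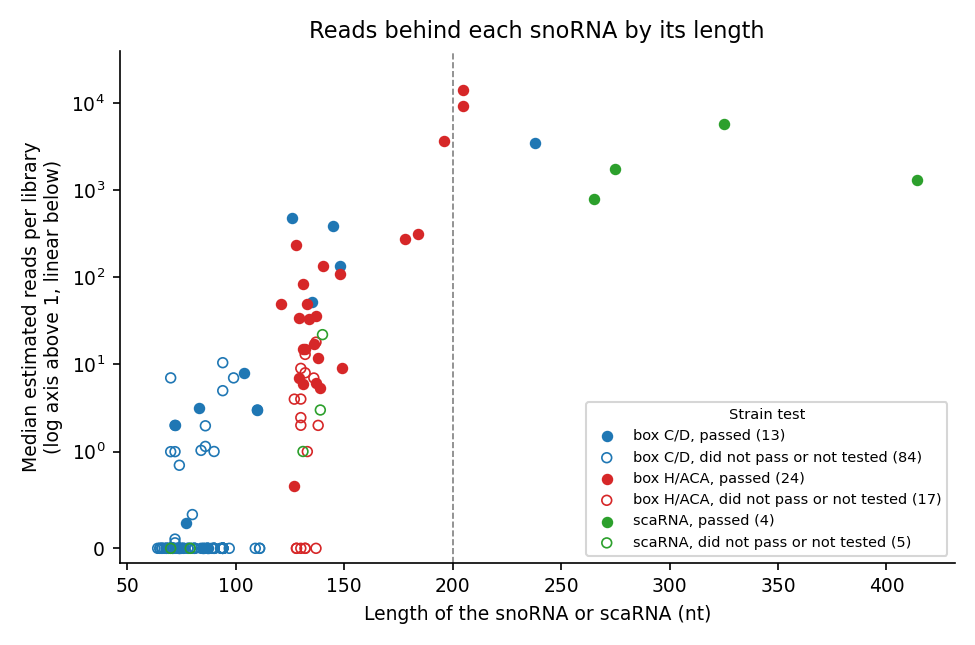
Median estimated reads per library (vertical, log axis above 1) against length in nt for the 147 snoRNA and scaRNA genes, coloured by class, with filled points for genes that passed the strain test at an adjusted p under 0.05. The dashed line marks 200 nt, and every one of the 7 points to its right is filled, while most points under 120 nt lie at or near 0 reads.

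The 5 highest levels among the guides belonged to RNAs of 196 nt or more. Snora73a, which takes part in processing of the ribosomal RNA precursor, had a median strain mean of 3189 scaled TPM (median 14090 estimated reads), and its copy Snora73b stood at 2162.5 (9373 reads). Snora74a (196 nt), a box H/ACA snoRNA, followed at 940 and Scarna10 (325 nt) at 702. Snord17, the longest box C/D member at 238 nt, had 650. Snord22 stood at 297 and Scarna13 (275 nt) at 261. Snord104 (70 nt) reached 228 scaled TPM on a median of 7.01 estimated reads, so its place rests on few reads, against 482.1 for Snord22. Among hosts, per length, Gas5 was highest with a median of 402 scaled TPM, followed by Snhg6 (58.0), Snhg12 (54.2), Snhg5 (33.6) and Snhg18 (32.7). Snhg15 (14.0), Snhg3 (10.7), Snhg17 (8.53), Snhg20 (8.08) and Snhg9 (1.74) were lower. Snhg3 RNA was thus far below the snoRNAs of its introns. Snhg11 and Snhg7os stayed below the filter of 0.5 scaled TPM in 2 libraries. In all, 30 members were at 0 in every library (28 at exactly 0), among them Snord64, Snord107 and 16 of the 17 Snord116l copies of the imprinted Snhg14 cluster.

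The strain test asked whether libraries of a strain were closer to each other than to other strains (limma moderated F on log2 of scaled TPM + 0.5, 92 libraries of 39 strains, adjusted over all genes). It could be run on 119 members, since 40 did not pass the filter. Of these, 51 passed (42.9%), beside 81.5% of all 15673 genes tested. All 10 tested host genes passed, as did 24 of 39 box H/ACA snoRNAs, 4 of 9 scaRNAs and 13 of 61 box C/D snoRNAs. The share of variance between strains (intraclass correlation) had a median of 0.751 in hosts, 0.229 in box H/ACA, 0.140 in scaRNAs and 0.0597 in box C/D, against 0.472 over all genes tested. Reads per gene moved with these counts: 5 of 50 tested snoRNAs with a median of at most 1 read passed, 9 of 28 above 1 and up to 10, 11 of 15 up to 100, and 16 of 16 above 100. With 10 or more reads, 5 of 6 box C/D, 18 of 20 box H/ACA and 4 of 5 scaRNAs passed. Whether the classes would differ at equal reads was not tested. Sample titles carry numbers whose meaning is not stated, and in the 20 strains whose numbers lay 20 or more apart, here called distant, 19 of 119 members passed (16.0%), beside 41.3% of all genes. In bulk RNA, fewer cells of a type and less RNA per cell cannot be told apart in any of these differences.

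Gas5 and 4 Snhg genes, Snhg6, Snhg12, Snhg5 and Snhg3, were lowest in the same strain, CC030. Gas5 was at 149 and 208 scaled TPM in the CC030 libraries and at 188.2 ± 21.5 in CC055 (SD, n = 2), against a median strain mean of 402. CC037 was highest with 692 and 600 (646 ± 65.2). The libraries of CC030 and CC037 did not overlap, which says little because these strains were picked as the lowest and highest means. The difference of CC030 from the other strains was -1.09 ± 0.16 on the log2 scale (SE, limma adjusted p 1.14e-06, n = 2). Snhg6, the host of Snord87, spanned more. Its CC030 libraries read 8.22 and 24.7 scaled TPM and the 4 of CC015 ran from 11.7 to 24.5, against 181 and 165.4 in CC037. The range between strain means was 3.55 on the log2 scale, and CC030 differed from the others by -2.06 ± 0.24 (adjusted p 2.55e-09) and CC037 by 1.59 ± 0.24 (adjusted p 1.70e-06). Snhg12, host of 4 snoRNAs among the members, was at 13.5 and 21.0 in CC030 and at 87.6 and 76.5 in CC040. The CC030 calls of Gas5, Snhg6, Snhg12, Snhg5 and Snhg3 held with unscaled TPM and with protein-coding scaling.

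The other hosts differed in which strains stood apart. Snhg5, the host of Snord50a and Snord50b, was at 67.2 to 90.8 scaled TPM in 5 strain means (CC071, CC045, CC061, CC002 and CC005) and at or below 50.7 in the other 37. The lowest library of those 5 read 59.2 and the highest of the rest 51.9. In CC005 the libraries read 98.8 and 82.9, which is 1.41 ± 0.18 above the other strains (adjusted p 2.43e-08). Snhg18 carries Snord123. Its means ran from 13.0 to 20.3 in 10 strains, with CC023 lowest at 13.4 and 12.6, and from 24.8 to 44.1 in the other 32. The nearest libraries on the 2 sides of that gap were 21.3 and 23.0, so the gap was narrow beside the spread above it. It had the smallest p of the members (adjusted p 3.89e-23, intraclass correlation 0.919), and CC023 differed from the others by -1.12 ± 0.10. Snhg3 was at 31.1 and 23.3 in CC043, while the other 41 strain means reached at most 15.3 and their highest library 21.1. That strain differed by 1.33 ± 0.15 (adjusted p 6.33e-10). Snhg15, which carries Snora9, had its lowest mean in CC015, whose 4 libraries at 6.90 to 10.7 overlapped those of other strains (-0.81 ± 0.09, adjusted p 8.37e-10) and highest in CC043 at 22.3 ± 5.00 (n = 2). Snhg9 ran from 0.375 ± 0.0669 in CC002 to 4.43 ± 0.0399 in CC032 (n = 2 each). It is annotated as antisense to another gene and the sources used here do not say whether counting used strand, so reads of its partner cannot be told apart from it. Snhg17 (5.59 to 11.2 between strain means) and Snhg20 (4.31 to 10.9) varied less.

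**Figure D2:**
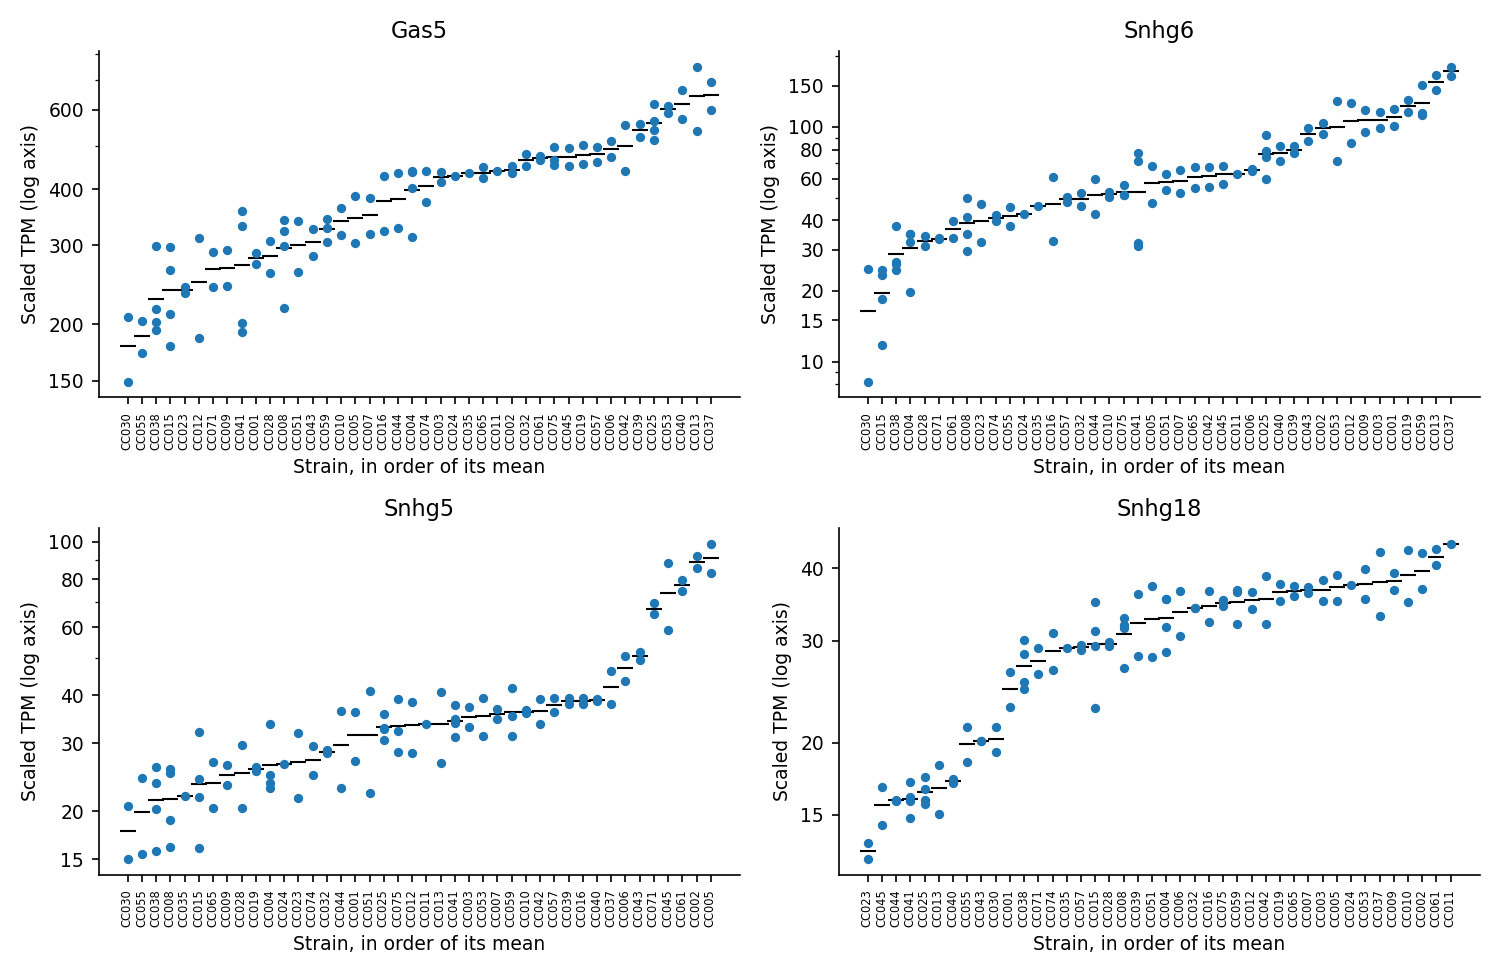
Scaled TPM of each library (blue points, log axis) and strain mean (black bars) of Gas5, Snhg6, Snhg5 and Snhg18, with the 42 strains of each panel in order of their mean. CC030 is lowest in Gas5, Snhg6 and Snhg5, 5 strains stand above the rest in Snhg5, and 10 strains lie at or below a mean of 20.3 in Snhg18.

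Among snoRNAs, Snora74a had the smallest p (adjusted p 8.01e-17). Its libraries read 206 and 298 scaled TPM in CC030, 287 to 440 in the 4 of CC004 and 456 and 472 in CC003. In the other 39 strains no library was below 593, and CC053 was highest at 1432 and 1644. The difference was -1.90 ± 0.15 for CC030 and -1.44 ± 0.11 for CC004 (adjusted p 1.07e-15 and 1.19e-16), and both were also called in the strains with distant title numbers. Snora73b was at 581 and 963 in CC030, 891 and 788 in CC055 and 683 to 1320 in CC015, and it reached 3324 to 5489 in the 4 CC025 libraries. CC025 lay 1.11 ± 0.13 above the others (adjusted p 2.17e-09). Snora73a varied less, from 2253 ± 966 in CC030 to 5156 ± 420 in CC053 (n = 2 each). The ratio of Snora73a to Snora73b ran from 0.722 in CC065 to 3.33 in CC015 (median 1.48). Their sequences are nearly the same, so how reads were divided between them is uncertain.

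Snora57 and Snord22 were high in the same 4 strains, CC055, CC075, CC074 and CC035. Snora57 read 157 to 245 scaled TPM in their 8 libraries, and no library of the other 38 strains passed 113. It was 2.19 ± 0.38 above the other strains in CC074 (adjusted p 1.78e-05). Snord22 read 466 to 617 in the same libraries, where other strains reached 562, so the libraries overlapped although the 4 means were the highest. The difference for CC075 was 0.91 ± 0.20 (adjusted p 7.72e-04). Over the 42 strain means, Pearson's r of both was 0.907 (Spearman's rho 0.845), given as a description. Both scaRNAs of high level had narrower ranges: Scarna10 ran from 513 ± 16.4 in CC023 to 916 ± 9.99 in CC061, and Scarna13 from 163 ± 1.28 in CC071 to 350.0 ± 18.05 in CC010 (n = 2 each).

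The members with the widest ranges between strains rested mostly on few reads. Snord49b was listed at 0 in both CC030 libraries and in 3 of 4 of CC004, and at 381 and 230 scaled TPM in CC023, which is 19 and 11 estimated reads. It was at 0 in 15 libraries in all, and the highest single library was 1 of CC071 at 399. Its range between strains of 9.21 on the log2 scale therefore spans counts of 0 to 19. It passed at an adjusted p of 0.0287 and lost the call when any of 5 libraries was left out. Snord100 (range 7.03, adjusted p 0.0332) was at 0 in 70 libraries and never above 3.01 reads, and Snord32a (6.31, adjusted p 0.0351) had a median of 3.17. These calls were lost without any of 10 and 6 libraries, in turn. Snord47, in Gas5, had a range of 5.73, and Snora52, in Rplp2, of 4.32. Snora34 (range 4.09, adjusted p 1.44e-04) read 0.837 and 0 in CC030 and 14.5 and 12.5 in CC037, with a median of 12.0 reads.

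Each strain was also set against the mean of the others, with adjustment over all genes and strains. Of 4641 member and strain pairs 331 were called (7.13%), beside 14.8% over all genes. CC037 had 19 of 119 members higher and 1 lower, beside 6.39% of all genes higher and 7.69% lower, and CC053 had 19 higher and 0 lower (4.94% and 4.15% of all genes). Of the same 119 members, CC030 had 0 higher and 18 lower (16.8% and 13.2% of all genes). CC015 had 2 higher and 14 lower (10.8% and 10.6%). The lower counts of CC030 and CC015 were near the share of all genes, and the difference lay in their few or absent higher calls. Among hosts, 6 were higher in CC037 and in CC053, 6 lower in CC030 and 7 lower in CC015. The higher calls depended on scaling: with unscaled TPM 7 members were higher in CC037 and 9 in CC053, while 13 were lower in CC030 and in CC015. Among strains with distant title numbers, which do not include CC037 and CC053, 11 members were lower in CC030, and in CC015 3 were lower and 1 higher. The shares of all genes per strain with unscaled TPM and with distant numbers are not given here. Unscaled TPM moved the median gene of a library by -0.33 to 0.31 on the log2 scale. Summed macrophage markers did not go in 1 direction with these counts. The 10 genes summed to 4120 scaled TPM in CC030, the highest strain, against a median of 387, to 613 in CC015 and 311 in CC053, and it was below that median in CC037 too. Other strains with high sums differed. CC040, at 1538, had 14 members higher and 1 lower (6.19% and 4.52% of all genes). CC032, at 1892, had 6 higher and 0 lower (8.44% and 5.61%). CC071, at 3343.5, had 4 of each (11.5% and 9.67%), and CC055, at 2002, had 5 higher and 7 lower (10.8% and 6.29%). CC007, at 1485, had 1 higher and 6 lower (9.08% and 6.02%). CC008, at 1313, had 5 of each (12.9% and 11.6%). CC038, at 1084, had 0 higher and 11 lower (16% and 14.2%). CC004, at 1079, had 2 higher and 10 lower (10.7% and 8.03%). CC019, at 1014, had 5 higher and 2 lower (4.19% and 5.06%). CC005, with the lowest sum (49.7), had 7 higher and 0 lower (5.83% and 7.9%). The part of those cells in the members' values was not tested.

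Each snoRNA was then set beside its host. Of the 147 snoRNA and scaRNA genes, 9 lay in no gene of the same strand, 22 had a host outside the table, 20 were themselves below the filter and 1 had a host below it. The other 95 could be tested, in 72 hosts. For each host, every tested gene was regressed on its level over 42 strain means (limma, adjusted over all genes and hosts). Of the 95 snoRNAs, 9 were related to their own host, all positively (9.47%), beside 5.96% of all genes positively and 6.67% negatively. They were 7 of 32 box H/ACA, 2 of 57 box C/D and 0 of 6 scaRNAs, where at an unadjusted limma p under 0.05 no scaRNA was positive and 1 negative. The median r over the 95 pairs was 0.0829, and 60 were positive, against a median of -0.00873 over all genes and hosts. For the 24 pairs with 10 or more reads per library the median r was 0.30 and 8 were called, and for the 71 with fewer reads it was 0.0326 with 1 called. That division was chosen after the values were seen. The 14 snoRNAs of Snhg genes and Gas5 gave 3 calls and a median r of 0.117. The 26 in ribosomal protein genes gave 4 (15.4%) and a median r of 0.111. Of all genes, 9.50% were positively related to Rps3, 10.2% to Rpl32 and 9.85% to Rpl39, the hosts of those 4. In the 20 strains with distant title numbers limma called 0 pairs (12 positive and 2 negative at an unadjusted p under 0.05). With unscaled TPM 3 pairs were called, among them Snora73b and Snora78, and the calls of the other 7 named next were lost.

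**Figure D3:**
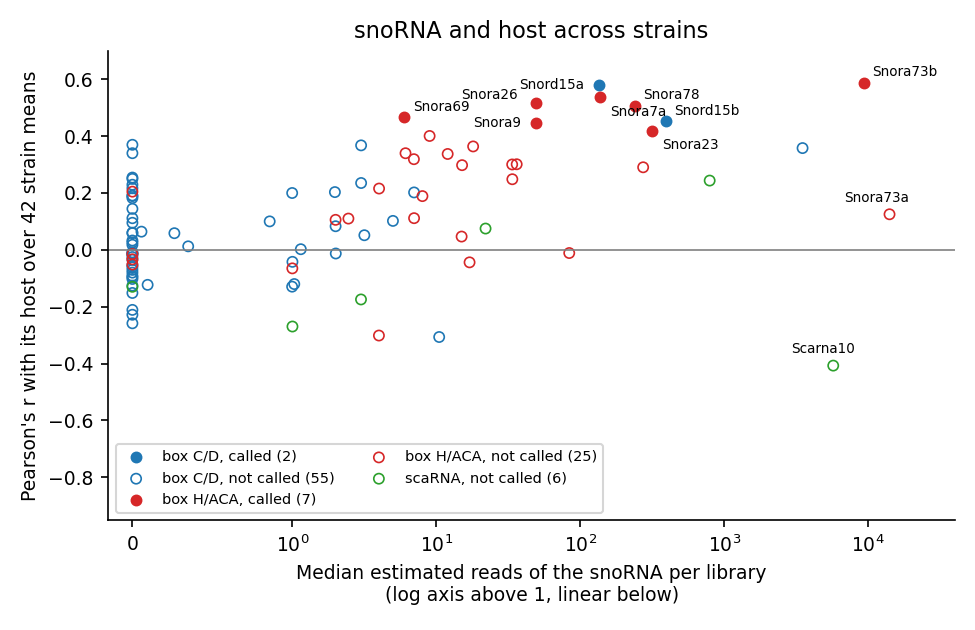
Pearson's r of each snoRNA or scaRNA with its host over 42 strain means (vertical) against the snoRNA's median estimated reads (horizontal, log axis above 1), filled where the relation was called at an adjusted p under 0.05. The 9 filled points lie between r of 0.419 and 0.588, and 8 of them have 10 or more reads.

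Snora73b and Snhg3 had the highest r (0.588, rho 0.506, slope 0.83, adjusted p 0.00125). Its copy Snora73a, from the same host, had an r of 0.125 and was not called (adjusted p 0.697). The log2 difference of Snora73b and Snora73a was itself correlated with Snhg3 (r = 0.546, rho = 0.413, permutation p 2.3e-04 for r over 100000 permutations, 1 relation chosen after the values were seen). It was 0.503 without the 2 strains farthest in Snhg3. Since the copies were picked by their r with Snhg3, the permutation p adds no separate support. How reads were divided between the copies is uncertain here too. Within strains, over deviations of libraries from their strain mean, Snora73b had an r of 0.0554 with Snhg3.

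**Figure D4:**
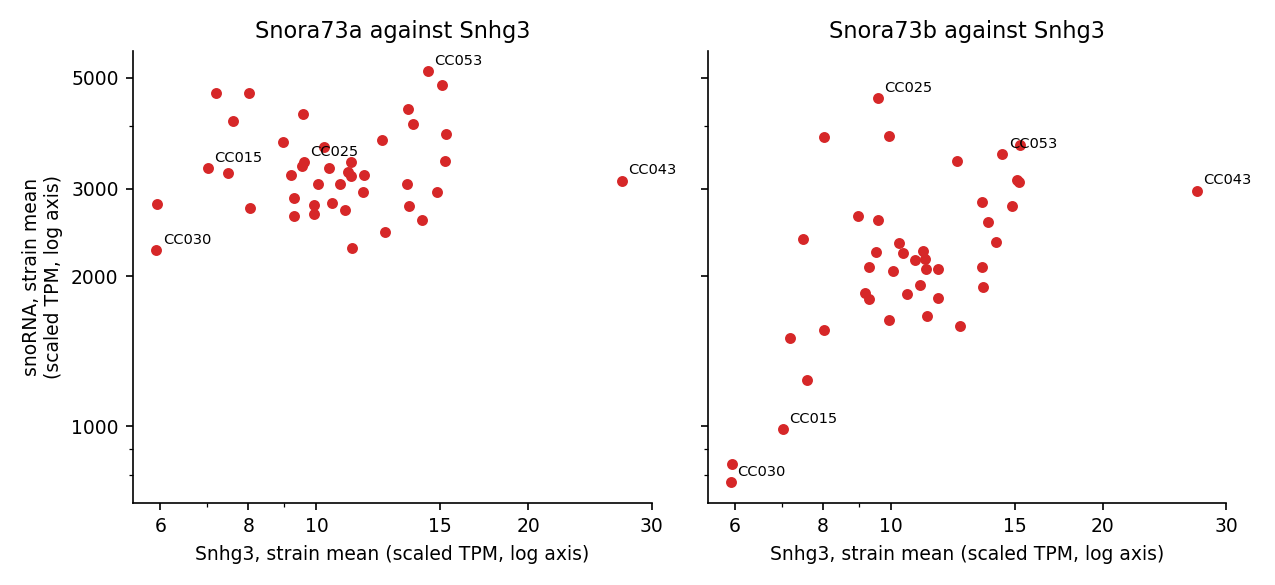
Strain means in scaled TPM (log axes) of Snora73a and Snora73b against their host Snhg3, 1 point per strain, with 5 strains named. CC030 lies lowest in both panels on the vertical axis, and CC043, at 27.2 scaled TPM of Snhg3, is not highest in either.

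Both snoRNAs of Rps3, a ribosomal protein of the small subunit, were called. Snord15a had an r of 0.580 (slope 0.78, adjusted p 0.00137) and Snord15b of 0.453 (0.61, adjusted p 0.0232). Snora7a followed Rpl32 (r = 0.538) and Snora69 followed Rpl39 (r = 0.468, on a median of 6.00 reads), both hosts being ribosomal protein genes of the large subunit. Snora26 followed Dancr (r = 0.515), a noncoding host, but the call was lost when host transcripts overlapping the snoRNA were left out (adjusted p 0.290). Snora78 followed Snhg9 (r = 0.507) and Snora9 followed Snhg15 (r = 0.446). Snora23 followed Ipo7, an importin (r = 0.419). Of all genes, 6.30% were positively related to Dancr, 0.983% to Snhg9, 4.19% to Snhg15 and 9.44% to Ipo7. Leaving out a strain ended the call of Snord15b for CC030, CC037 or CC053, of Snora9 for CC015, CC023 or CC037, and of Snora23 for any of 12 strains. With protein-coding scaling the calls of Snord15b, Snora9 and Snora23 were lost, and so they were without the 2 strains farthest in the host. With ranks those of Snord15b, Snora78 and Snora23 were lost, and that of Snora23 also without the filter and with the second run alone. Over deviations within strains none of the 9 was called, with r between 0.0122 and 0.263.

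The lowest r belonged to Scarna10 and Ncapd2, a condensin subunit (r = -0.407, adjusted p 0.0610), which was not called. Snord21 and Rpl5 had -0.307, but without the 2 strains farthest in Rpl5 the value was 0.249. Snora28 and Eif5 (-0.302), Scarna8 and Haus6 (-0.270), Snord67 and Ckap5 (-0.259) and Snord58b and Rpl17 (-0.228) followed, all without a call. The snoRNAs of these 4 had a median of at most 4 reads.

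The snoRNAs of Gas5 could hardly be followed. Gas5 holds 3 members on its strand in the table. Snord47 was at 0 in 39 of 95 libraries (exactly 0 in 30) and reached 26.0 ± 0.985 scaled TPM in CC037 (n = 2), Snord80 was at 0 in 64 libraries (exactly 0 in 46), and Snord78 was at 0 in all. Neither tested member was called against Gas5 (r = 0.0584 and adjusted p 0.866 for Snord47, r = 0.254 and adjusted p 0.294 for Snord80). Some Gas5 transcripts overlap these snoRNAs, and the read estimates of Snord47 were whole in only 2.78% of 36 values. Of the snoRNAs of Snhg1, only Snord22 was in the table, and its host was not analysed here.

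Gas5, Snhg6 and Snhg12 were negatively related to genes of dividing cells. Of 10 proliferation genes 8 were negatively related to Gas5 and 0 positively, beside 7.21% of all genes negatively and 6.15% positively. Gas5 had an r of -0.632 with Mki67, a marker of cycling cells (adjusted p 2.81e-04), -0.611 with Top2a, a topoisomerase, and -0.616 with Cdk1, a cell cycle kinase. The median r over the 10 was -0.591, and Pcna, the DNA replication clamp, was not called (-0.338, adjusted p 0.132). Snhg6 was negatively related to 9 of 10 (8.74% of all genes) with a median r of -0.633, and Snhg12 also to 9 (12.7%) with a median of -0.574. Snhg15 had 6 (3.92%), but 1 when CC015 was left out and 0 with unscaled TPM (1.7% of all genes). The negative relations of Gas5, Snhg6 and Snhg12 were also called within strains, for 9, 9 and 8 genes, beside 5.89%, 7.38% and 8.07% of all genes negatively. In the strains with distant title numbers 0, 4 and 8 were called, beside 0.287%, 1.88% and 3.39% of all genes negatively. At least 9 of 10 slopes were negative there for each host.

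Macrophage markers were negatively related to 2 of these hosts. All 10 were called for Snhg6 (median r -0.463) and for Snhg12 (-0.468). Without CC030 these counts were 1 and 2, with a median r of -0.392 and -0.390. With ranks they were 7 and 5, and within strains 0 and 1. Gas5 was related to 0 of 10 (median r -0.227, 0 at an unadjusted limma p under 0.05). Csf1r and the other 9 markers summed to 49.7 scaled TPM in CC005, the lowest strain, and their part in the relations was not tested. Of 10 osteoblast genes, 1 was positively related to Gas5 and 3 to Snhg6 (5.28% of all genes positively), and with unscaled TPM 0 and 1 were. With protein-coding scaling it was 1 for each, and within strains 0 for each, where 8 of the 10 slopes on Snhg6 were negative. Sp7, a transcription factor required for osteoblasts, was called for both (r = 0.455 and 0.491). Osteoblast markers were present in every strain, with a sum of 8414 to 27206 scaled TPM. Pecam1, Tie1 and Emcn of endothelium and Snap25, Rbfox3 and Syt1 of neurons did not pass the filter.

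**Figure D5:**
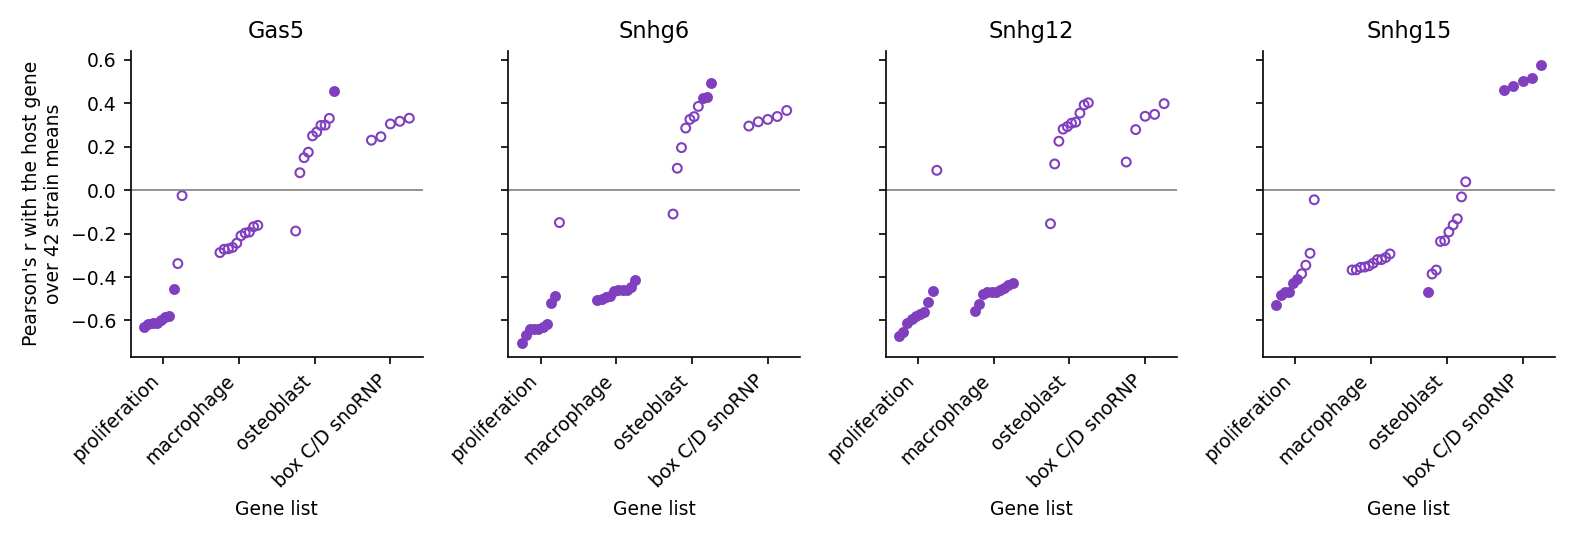
Pearson's r over 42 strain means of Gas5, Snhg6, Snhg12 and Snhg15 with each gene of 4 lists, 1 point per gene, filled where called at an adjusted p under 0.05. Proliferation genes lie below 0 except 1 for Snhg12, all 10 macrophage genes are filled for Snhg6 and Snhg12 (1 and 2 without CC030), and the 5 box C/D proteins are filled for Snhg15.

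All 5 proteins of box C/D particles were positively related to Snhg15, beside 4.19% of all genes, with r from 0.462 (Nop56) to 0.577 (Rrp9, a U3-specific protein). Fbl, the methyltransferase, had an r of 0.516 (adjusted p 0.00756). Without CC043 3 were called. With protein-coding scaling 3 were (1.85% of all genes), with unscaled TPM 1 (0.74%), with distant numbers 0 (0.147%) and within strains 5 (6.20%). Of 4 box H/ACA proteins 1 was called, and of 11 assembly and scaRNP factors 4. Against Gas5, 0 of 5 box C/D proteins (3 positive at an unadjusted limma p under 0.05) and 1 of 4 box H/ACA proteins were called. Of 8 genes of the U3 snoRNA and its particle, 2 were positively related to Gas5 (median r 0.153) and 2 to Snhg12 (median r 0.114). The protein Imp3 was among them for Gas5 (r = 0.766, adjusted p 8.74e-07) and Snhg12 (r = 0.764). Of all genes, 6.15% were positively related to Gas5 and 9.69% to Snhg12. Of 10 nonsense-mediated decay genes, 0 were related to Gas5, Snhg6 or Snhg12 (3, 1 and 2 at an unadjusted limma p under 0.05). For Snhg15, 1 of them, Upf3a, was called.

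Snhg3 was positively related over strain means to 2 of 11 assembly factors, Shq1 (r = 0.462) and Nolc1 (0.463), beside 2.09% of all genes. Within strains it was positively related to 5 of 5 box C/D proteins, 4 of 4 box H/ACA proteins and 5 of 11 assembly factors, beside 9.71% of all genes, and negatively to 4 osteoblast genes (8.12%). Snhg5 was negatively related to 3 proliferation genes, Top2a, Ccnb1 and Pcna, and to the macrophage marker Cd68 (0.849% of all genes). With unscaled TPM and with distant numbers 0 genes of both lists were called. With protein-coding scaling 1 proliferation gene and 0 macrophage genes were, and within strains 0 and 4 (8.77% of all genes negatively). Of the 10 proliferation slopes on Snhg5, 1 was negative within strains. Snhg18 was positively related to 2 osteoblast genes, the collagen gene Col1a2 (r = 0.491) and Phex (0.456), beside 1.62% of all genes, and negatively to Tubb3, a tubulin (1.33%). Snhg9 was positively related to 1 of 11 assembly factors, Nolc1 (0.983%), and negatively to 1 of 10 decay genes, Smg6 (0.542%). With unscaled TPM and with protein-coding scaling 1 assembly factor and 0 decay genes were called for Snhg9. With distant numbers and within strains 0 genes of both lists were.

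The proteins varied between strains too. In the strain test, 5 of 5 box C/D proteins, 4 of 4 box H/ACA proteins, 10 of 11 assembly and scaRNP factors, 7 of 10 decay genes and 8 of 8 U3 genes passed, beside the 81.5% of all genes. The box C/D proteins summed to 111 scaled TPM in CC007 and 191 in CC043, and the box H/ACA proteins to 54.4 in CC071 and 93.7 in CC043. CC043 also had the highest sums of the assembly factors (81.6) and the decay genes (82.2), and it was the strain with the highest Snhg3 and Snhg15. The U3 genes, which include copies of the U3 snoRNA itself and 3 of its proteins, summed to 3911 scaled TPM in CC030, the lowest strain, and to 10240 in CC039, the highest. That sum was mostly of the RNA copies, with medians from 781 (Rnu3a) to 1566 (Rnu3b2) scaled TPM. The proteins Mphosph10, Imp3 and Imp4 had medians of 11.0, 44.2 and 8.69. The U3 sum therefore cannot be set beside the protein sums.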

How the data were processed

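Total RNA-seq libraries were made with a stranded kit after depletion of ribosomal RNA, per the labels' protocols. The deposited values are TPM per transcript for 96 samples. Per the submitters' processing notes, the tool was Bowtie and the build mm9. The sources used here do not say how reads were assigned or how many each sample had. All 94545 named transcripts were looked up by identifier in GENCODE M21 (GRCm38), and 91225 matched, which held a median of 98.2% of the TPM. Coordinates are not printed, since the builds differ. All columns were used (0 left out).

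TPM was summed per gene, and the 2 runs of 1 sample were averaged. Values were divided by a factor per library (0.772 to 1.27), the trimmed mean of its log ratios (30% trimmed by ratio and 5% by level, genes averaging 1 TPM or more). Tests used log2(scaled TPM + 0.5) of genes reaching 0.5 scaled TPM in at least 2 libraries, a scale that understates changes of low genes. limma 3.58.1 (R 4.3.3, variance trend) gave the strain test, each strain against the mean of the others and the regression on hosts, with Benjamini-Hochberg adjustment over all genes and a threshold of 0.05. Scripts were tested on simulated data. A host is the gene whose span holds the snoRNA on the same strand, with Snhg or Gas5 preferred, then the shortest span. Reads were estimated from the TPM step of 1 read with an effective length of the length minus 74 nt. Permutation tests are two-sided (numpy 2.4.6). Sequences were aligned with Biopython 1.88.

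Named genes were Gas5 and the Snhg genes at 1 scaled TPM or more, the 8 snoRNAs or scaRNAs of highest level, the 10 members of smallest p, the 8 called members of widest range, the 6 pairs of highest and 6 of lowest r, the snoRNAs of Gas5 and Snhg1, and genes of lists. Snord15b, Snora9 and Snora23 were added because they were called with their host. Members and lists were chosen with earlier results of these data known. Alternatives were other pseudocounts, no filter, other scalings, each run alone, strains with distant title numbers (20 or more apart, 20 strains), ranks, within-strain deviations and leaving out libraries or strains. What the title numbers mean is not stated.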

Additional observations from a re-analysis of the deposited data

Results flagged for a closer look

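In each of the 6 strains with 4 libraries, the 10 hosts and the 8 highest snoRNAs or scaRNAs were searched for a library far from the other 3 by Dixon's 95% critical value. Of 108 sets 9 had one, where chance gives about 1 in 20 sets. Replicate 2 of CC004 was low in 3 members: Snhg12 at 33.3 scaled TPM (the others 54.5 to 57.5), Snhg6 at 19.8 (32.3 to 35.0) and Scarna13 at 238 (283 to 286). Snhg15 was at 8.47 in CC004 replicate 3 (10.7 to 11.1) and at 13.0 in CC041 replicate 1 (18.2 to 19.2). Snhg17 was at 7.11 in CC015 replicate 2 (8.88 to 8.89), and Snhg20 at 7.11 in CC015 replicate 4 (6.37 to 6.45). Snord17 was at 1023 in CC025 replicate 3 (695 to 721). Snord104 was at 499 in CC008 replicate 1 (140 to 165.1), on few reads.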

How the results depend on the processing

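The count of members past the strain test stayed within 1.5 times the 51 reported under every setting except strains with distant title numbers (19). Leaving out 1 library gave 47 to 53. The number of snoRNAs positively related to their host, 9, was 3 with unscaled TPM, 0 with distant numbers, 2 within strains, and 6 to 10 with 1 strain left out. The 2 within strains, Snora34 and Snord85, were not among the 9, and Snord14e was negatively related there. The 331 called member and strain pairs became 66 with distant numbers, where fewer strains were tested. Proliferation genes negatively related to a host in strains with distant numbers were 0 for Gas5 (0.287% of all genes) and 4 for Snhg6 (1.88%). For Snhg15 (6) they were 0 there (0.102%), 0 with unscaled TPM (1.7%), 3 with ranks (3.66%) and 0 within strains (4.77%). With 1 strain left out they were 8 in every case for Gas5, 9 for Snhg6 and Snhg12, and 1 to 8 for Snhg15. The 10 macrophage genes negatively related to Snhg6 became 0 with distant numbers, 0 within strains and 1 to 10 with 1 strain left out. For Snhg12 (10) they became 0, 1 and 2 to 10, and 5 with ranks. The 5 box C/D proteins related to Snhg15 became 1 with unscaled TPM, 3 with protein-coding scaling and 0 with distant numbers. Of all genes, 0.74%, 1.85% and 0.147% were positively related to Snhg15 in these settings. With 1 strain left out 3 to 5 of the proteins were called. These settings of the list counts were chosen after seeing the data. The median intraclass correlation with distant and with close title numbers was 0.620 and 0.849 in hosts, -0.0269 and 0.0257 in box C/D, 0.184 and 0.360 in box H/ACA, 0.346 and 0.350 in scaRNAs and 0.355 and 0.697 over all genes.

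Slopes on the host changed sign for Snora23 with unscaled TPM (-0.0810), and for members not called over strain means: with unscaled TPM Snora34 (-0.344), Snora73a (-0.00975), Snord47 (-0.0412) and Snord32a (-0.209); with distant numbers Snora73a (-0.0144) and Snord47 (-0.331); within strains Snora73a (-0.0607), Snord32a (-0.257), Snord58b (1.14), Snord21 (1.24) and Scarna10 (0.0315); without the 2 strains farthest in the host Snord100 (-0.0921), Snord47 (-0.0169) and Snord21 (1.14); with ranks Snord21 (0.126); and with a pseudocount of 0.1 Snord49b (0.0266). The cause was not tested. Snora34 became called within strains (1 slope). Of the other slopes of named pairs under alternatives, 36 lost the call and 234 kept their side of the threshold. Of 312 strain tests of named members under alternatives, 25 lost the call and 287 kept their side of the threshold. Depth limits the members of 74 nt or less most, where 1 read sets the level. No paired analysis was possible because the replicate numbers were given in accession order.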

Other observations

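The genes whose strain means were most like those of some members were listed, over 42 strains and all genes tested, chosen after the values were seen. The 5 genes nearest to Gas5 included Rps18 (r = 0.787), Rpl22 (0.787) and Rpl9 (0.783), all of ribosomal proteins, and those nearest to Snhg6 included Rpl6 (0.714) and Rpl23 (0.711). Snhg12 was nearest to Hspa9, a mitochondrial chaperone (0.896), and Eef2, a translation elongation factor (0.887). For Snora74a the nearest gene was Sil1, a cochaperone of the endoplasmic reticulum (r = 0.888, rho 0.759), followed by Gm10076 (0.797) and Rplp0 (0.792). The gene nearest to Snora57 was another member, Snord22 (0.907), and the next was Macrod1 (0.690). Snora73b was nearest to Snora9 (0.620) and Snora34 (0.615). Scarna10 had mt-Rnr2, a mitochondrial ribosomal RNA, among its 5 nearest genes (0.655).

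Among the hosts, Gas5 and Snhg12 had an r of 0.721 over strain means, Snhg6 and Snhg12 of 0.616 and Gas5 and Snhg6 of 0.523. Snhg18 had an r of 0.424 with Snhg20 and between -0.205 and 0.196 with the others.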
